A study of Mus musculus with 12 samples.

Results

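The Sox genes of groups C, E and F were examined for BRG1 binding in cardiac precursors (CPs). These are Sox4, Sox11 and Sox12 of group C (SoxC), Sox8, Sox9 and Sox10 of group E (SoxE), and Sox7, Sox17 and Sox18 of group F (SoxF), all 9 genes that were listed for the 3 groups, out of 22380 protein-coding genes of the annotation. They were taken as the listed members of these families. The data were the positions of BRG1-enriched regions, found by chromatin immunoprecipitation and sequencing (ChIPseq) with an antibody against BRG1, the ATPase of BAF chromatin-remodelling complexes. The cells were wild-type CPs of strain W4/129S6 made from mouse embryonic stem cells, which were grown as embryoid bodies with VEGF, Activin and BMP4 and then as monolayers with FGFs. Behind the list stand 2 BRG1 libraries and 1 library of input DNA, which is chromatin set aside without immunoprecipitation. The other 9 libraries of the series, from cells that lacked BAF60c or BAF170 and from wild-type cardiomyocytes, were left aside.

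The list gives positions only, with 4791 rows that name 3473 distinct regions of the mouse assembly mm9, and a distinct region was counted once. With neither a height nor a value per library in it, replicates could not be compared and sequencing depth is unknown. A gene without a region may be unbound or below the threshold of the authors. Whether every distinct position comes from CPs, as the label of the list says, could not be settled from the list itself. The number of rows is the number of sites that the study gives for CPs, as the label has it, whereas the number of distinct regions is the number that it gives for cardiomyocytes.

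Sox proteins bind DNA through a high mobility group domain that bends the helix, and they fall into groups by the similarity of that domain. SoxC genes are known in neural and mesenchymal progenitors and in the formation of the outflow tract of the heart, and SoxE genes in neural crest, glia, cartilage and the mesenchyme of heart valves. SoxF genes are known in endothelium and endocardium, and Sox17 also in definitive endoderm.

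Sox11 was the member of the 9 with a BRG1 region at its promoter, which was taken as 1 kb either side of an annotated transcription start site (TSS). No region lay at a promoter of the other 8 genes. This share of 1 in 9 stands beside 11.9% of all protein-coding genes with a region at a promoter, so that the count was near the background. The same Sox11 region was the 1 region that overlapped the body of a member, where the background was 12.3%. Within 100 kb of the genes, 3 of 9 members had a region, namely Sox11, Sox12 and Sox10, against 40.3% of protein-coding genes. By group, a region within 100 kb was listed for 2 of 3 SoxC genes, 1 of 3 SoxE genes and 0 of 3 SoxF genes. Counts this small do not show that the groups differ, and no test was made over the members.

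The bases upstream of the 3 SoxC genes are shown because these genes had the highest ratios of observed to expected CpG around the 5′ end among the members, and a region was listed at 1 of the 3. RefSeq promoter sequences (build GRCm38.p6) were found for 4 members, Sox4, Sox8, Sox11 and Sox12, and each matched mm9 exactly at 1 place near its gene. Sequences of Sox7, Sox9, Sox10, Sox17 and Sox18 were not used here. The runs end next to the RefSeq TSS for Sox11 and Sox12 and at the first annotated exon for Sox4, with Sox11 at chr12:28027584-28027833, Sox12 at chr2:152223783-152224032 and Sox4 at chr13:29045583-29045818 of mm9. All are on the minus strand and read from 5′ to 3′, and capitals mark CpG dinucleotides.
Sox11: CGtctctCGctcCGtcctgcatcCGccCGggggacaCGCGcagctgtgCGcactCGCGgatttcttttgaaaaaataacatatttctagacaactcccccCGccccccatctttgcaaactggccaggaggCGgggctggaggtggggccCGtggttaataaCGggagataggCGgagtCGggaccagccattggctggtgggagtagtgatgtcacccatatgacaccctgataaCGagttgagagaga
Sox12: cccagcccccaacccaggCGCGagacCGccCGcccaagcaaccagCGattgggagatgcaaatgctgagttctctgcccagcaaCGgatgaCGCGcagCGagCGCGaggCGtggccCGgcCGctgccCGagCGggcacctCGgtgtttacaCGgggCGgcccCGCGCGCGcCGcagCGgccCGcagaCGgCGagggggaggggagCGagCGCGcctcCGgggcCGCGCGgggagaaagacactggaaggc
Sox4: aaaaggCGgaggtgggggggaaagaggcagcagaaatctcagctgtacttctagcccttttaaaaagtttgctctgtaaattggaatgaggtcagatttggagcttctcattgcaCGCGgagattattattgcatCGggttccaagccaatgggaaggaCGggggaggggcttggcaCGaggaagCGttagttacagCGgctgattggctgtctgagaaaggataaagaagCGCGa
All 250 bases shown for Sox11 lay inside its BRG1 region, and none of those shown for Sox12 and Sox4 lay in a region. In the 250 bases before the RefSeq TSS there were 17 CpG at Sox11, 35 at Sox12, 11 at Sox4 and 18 at Sox8, where the median over 32851 RefSeq starts was 6. Sox12, without a region, thus had more CpG here than Sox11. The word CCAAT, read on either strand, was found in this window at Sox11, Sox12 and Sox4 but not at Sox8, and in 33.8% of all RefSeq starts. TATAAA was found at none of the 4 genes and in 12.4% of all starts. GGGCGG matched 2 times at Sox11, 3 times at Sox12, 2 times at Sox8 and 0 times at Sox4, and was held by 32.7% of all starts. These 3 words were chosen after the data were seen, and a match describes letters in a window and not a bound site.

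Sox11 (ENSMUSG00000063632.5), an activator of transcription in neural and mesenchymal progenitors, is a single-exon gene on the minus strand of chromosome 12 at chr12:28025562-28027574. Its BRG1 region, chr12:28026506-28027965, was 1460 bp wide and spanned the TSS. It reached 391 bp upstream of the TSS and 1069 bp downstream, with its midpoint 338.5 bp inside the gene. It covered the 301 bp of the annotated 5′ UTR and 768 bp of the coding sequence, which was 64.8% of the 1185 coding bp. It overlapped the promoter of no other gene, so that the assignment to Sox11 did not depend on a neighbour.

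The Sox11 region was wide for a promoter region. The median width of the 2510 distinct regions at promoters of protein-coding genes was 420 bp, and 100 of them, or 3.98%, were at least as wide. It was also written on 6 rows of the list, and 39 of the 3473 distinct regions, or 1.12%, were on as many rows or more. Wider regions tended to be on more rows, with a median of 260 bp for regions on 1 row, 880 bp for those on 2 to 5 rows and 2160 bp for those on 6 or more. What the number of rows stands for is not stated in the sources used here, and it was not read as strength. The GC content of the Sox11 region was 68.2%, below the median of 74.2% over promoter regions, and its ratio of observed to expected CpG was 0.963 against a median of 0.904. All its words of 75 bp, the read length, occurred once in mm9.

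**Figure D1:**
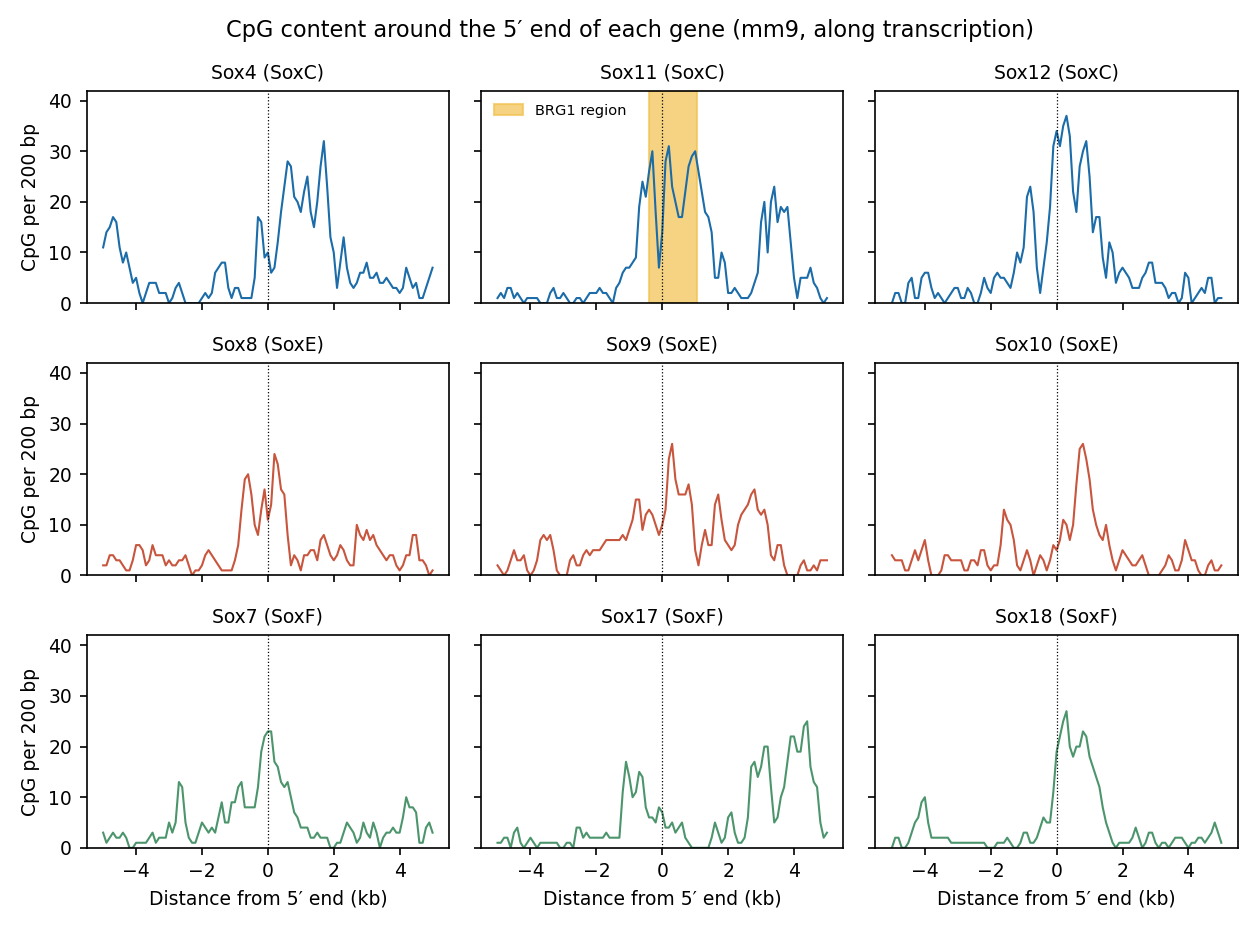
Number of CpG dinucleotides in windows of 200 bp, placed every 100 bp, against the distance from the 5′ end of each gene in kb, with the BRG1 region at Sox11 shaded. The shaded region of 1460 bp covers part of the CpG-rich stretch around the Sox11 start, which goes on past both of its ends, while CpG-rich stretches at Sox12 and other members carry no region.

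The other members had CpG-rich stretches as well, as the profiles of CpG around the 5′ ends show. The highest count in a window of 200 bp within 5 kb of the 5′ end was 37 at Sox12, 32 at Sox4 and 31 at Sox11. Among the SoxE and SoxF genes it ran from 23 at Sox7 to 27 at Sox18. The richest window lay farthest downstream of the 5′ end at Sox17, by 4400 bp, and at Sox4, by 1700 bp. Sox11 had the most windows with at least 10 CpG, 33 of 101, followed by 30 at Sox9 and 29 at Sox4.

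Over 1 kb either side of the 5′ end, GC content of the 9 genes ran from 47.5% at Sox17 to 70.3% at Sox12, with a median of 61.8% against 51.1% for protein-coding genes. The ratio of observed to expected CpG ran from 0.475 at Sox10 to 0.964 at Sox11, with a median of 0.756 against 0.468. A CpG-rich promoter, taken as a ratio of at least 0.6 and a GC content of at least 50%, was found in 6 of the 9 genes and in 29.7% of protein-coding genes. Among protein-coding genes with such a promoter, 30.3% had a region at a promoter, and among the 6 Sox genes 1 did.

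The genes fell evenly over 3 classes of CpG ratio. Sox4, Sox11 and Sox12, the SoxC genes, lay between 0.8 and 1, a class in which 43.2% of protein-coding genes had a region at a promoter, and 1 of these 3 genes had one. Sox9, Sox7 and Sox18 lay between 0.6 and 0.8, where the share was 22.4%, and 0 of 3 had a region. Sox8, Sox10 and Sox17 lay between 0.4 and 0.6, where the share was 8.12%, and 0 of 3 had a region. Sox8, at a ratio of 0.598 and a GC content of 64.1%, fell just short of the edge of 0.6. The same edge was used for a CpG-rich promoter. In each of these classes, most protein-coding genes had no region at a promoter. Within 1 kb of the 5′ end, 100% of the 75 bp words were unique in mm9 for all 9 genes. Genes with and without a region did not differ in this respect. CpG ratios and words were taken at the 5′ end alone, whereas a region at a promoter could lie at any annotated TSS.

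**Figure D2:**
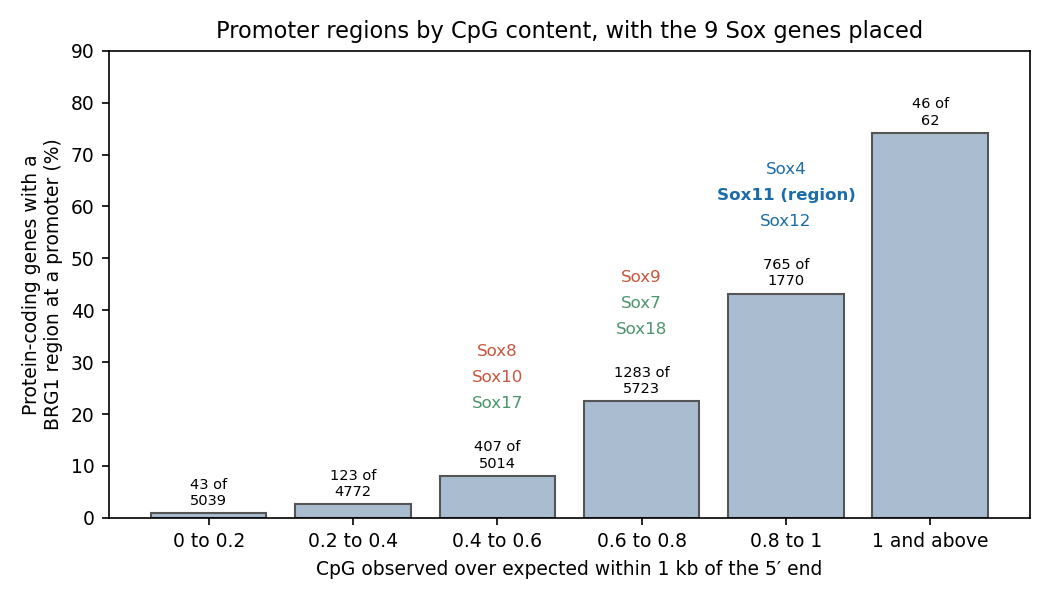
Share of protein-coding genes with a BRG1 region at a promoter, in percent, by the ratio of observed to expected CpG within 1 kb of the 5′ end, with the number of genes above each bar. The names of the 9 Sox genes stand above their class, and Sox11, the gene with a region, is in the class from 0.8 to 1, where the share was 43.2%.

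Sox4 and Sox12, the other SoxC genes, are co-expressed with Sox11 in many progenitors. Sox4 (ENSMUSG00000076431.3, chr13:29040788-29045582, minus strand) stood farthest from any region among the 9 genes, with the nearest one 674 kb away from its 5′ end and 79.0% of protein-coding genes closer to a region. Sox12 (ENSMUSG00000051817.7, chr2:152219347-152223782, minus strand) had 1 region within 100 kb, at chr2:152119786-152119885. That region was 100 bp wide, lay 99.5 kb past the 3′ end of Sox12 and was at the promoter of Tbc1d20. It was therefore within the window by a small margin and was assigned to Sox12 by distance alone. Within 500 kb of Sox12 there were 5 regions, of which 3 lay at promoters, those of Tbc1d20, Tcf15 and Scrt2, and 2 elsewhere. Tcf15 and Scrt2 were named after their positions had been seen.

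The SoxE genes had no region at a promoter or in a body. Sox10 (ENSMUSG00000033006.8, chr15:78985343-78994920, minus strand), a gene of neural crest and glia, had 1 region within 100 kb at chr15:79092046-79092365, which was 320 bp wide, 97.1 kb away and at the promoter of Baiap2l2. Its surroundings were rich in regions, with 8 within 500 kb, and all 8 were at promoters of other genes. Over the autosomes the list held 1.40 regions per Mb. Sox10 also had 8 other protein-coding genes with a TSS within 100 kb. Sox8 (ENSMUSG00000024176.4, chr17:25702837-25707631, minus strand), known in glia and testis, had its nearest region 371 kb away at the promoter of Pigq.

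Sox9 (ENSMUSG00000000567.4, chr11:112643538-112649074, plus strand), the regulator of cartilage formation and of valve mesenchyme, had no region within 100 kb. Its nearest region, chr11:112839446-112840385, lay 190 kb past the 3′ end of the gene, overlapped no annotated gene and was 153 kb from the nearest annotated TSS. It was 940 bp wide, and of the 907 distinct regions outside promoters 8.49% were at least as wide, with a median of 200 bp. Its GC content was 50.5% and its CpG ratio 0.250, and the median GC content of regions was 54.5% outside promoters and 74.2% at promoters of protein-coding genes. This region was singled out after the positions had been seen, and which gene it acts on, if any, was not tested.

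The SoxF genes had no region within 100 kb. Sox18 (ENSMUSG00000046470.5, chr2:181404541-181406345, minus strand), known in lymphatic endothelium, was the closest of them to a region, which was 1280 bp wide, 149 kb away and at the promoter of Dnajc5. Sox17 (ENSMUSG00000025902.7, chr1:4481009-4486494, minus strand) had its nearest region 289 kb away at the promoter of Mrpl15. Sox7 (ENSMUSG00000063060.5, chr14:64562511-64569569, plus strand), known in endothelium, had none within 500 kb. Of the 5 regions within 1 Mb of Sox7, all upstream, 4 lay within 100 kb of Gata4, a cardiac transcription factor gene whose end is 672 kb from Sox7. Gata4 was named after its position had been seen.

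**Figure D3:**
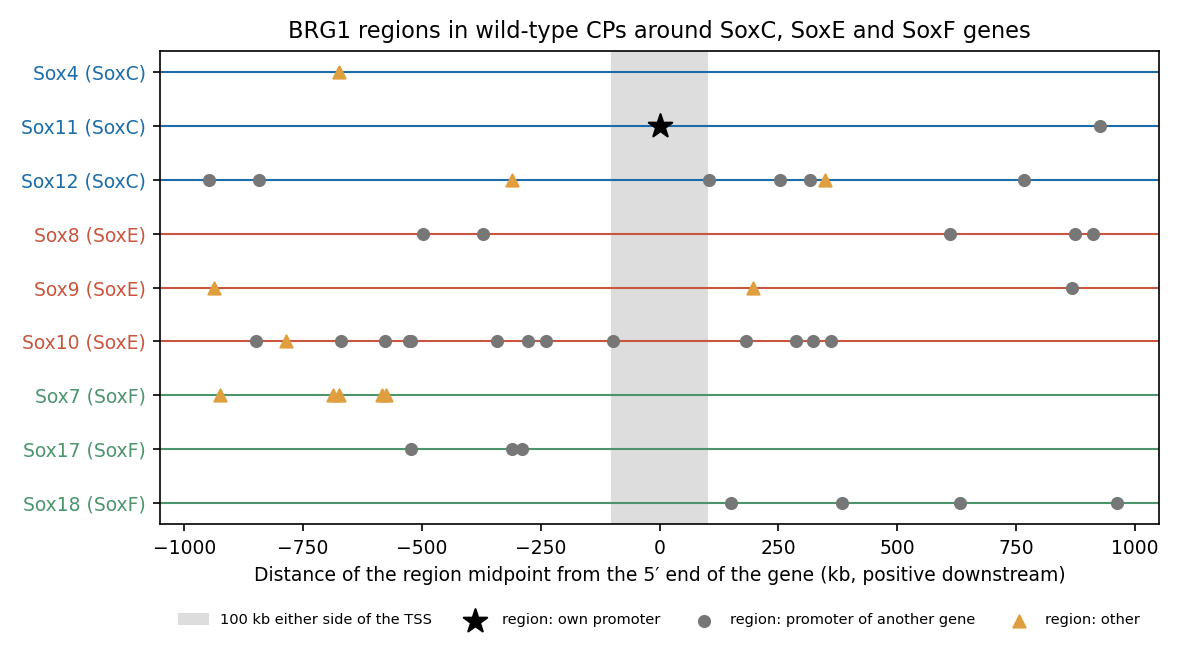
Midpoints of distinct BRG1 regions within 1 Mb of each Sox gene, in kb from the 5′ end with positive values downstream, marked by whether they lie at the gene's own promoter, at the promoter of another gene or elsewhere. A region at the own promoter is seen at Sox11, and the points near the edge of the shaded 100 kb belong to Sox10 and Sox12.

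Around the 9 genes together, the list held 3 distinct regions within 100 kb, of which 1 was at a member promoter and 2 were at promoters of other genes. Within 500 kb there were 21, of which 1 was at a member promoter, 17 at promoters of other genes and 3 elsewhere. Over the whole list, 73.9% of the distinct regions lay at an annotated promoter. Without the Sox11 region, the regions within 500 kb had a median width of 360 bp, equal to the 360 bp of all distinct regions. Other protein-coding genes with a TSS within 100 kb of the members numbered 32, and 2 of them, or 6.25%, had a region at a promoter, against 11.9% of all protein-coding genes. None was annotated this close to Sox4, Sox11, Sox9 or Sox17, whereas Sox12 and Sox18 had 9 each.

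Over 22350 protein-coding genes on chromosomes with a region, the 5′ end lay a median of 174 kb from the midpoint of the closest region (lower quartile 52.1 kb, upper quartile 541 kb). The median over the 9 Sox genes was 196 kb, the value of Sox9. Sox11, at 0.339 kb, stood apart from the other 8 genes, which lay between 97.3 kb at Sox10 and 674 kb at Sox4. Of the 9 genes, 5 were farther from a region than the median protein-coding gene, and 2, Sox7 and Sox4, were beyond the upper quartile. Sox11 stood at the close end, with 6.81% of protein-coding genes closer to a region.

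**Figure D4:**
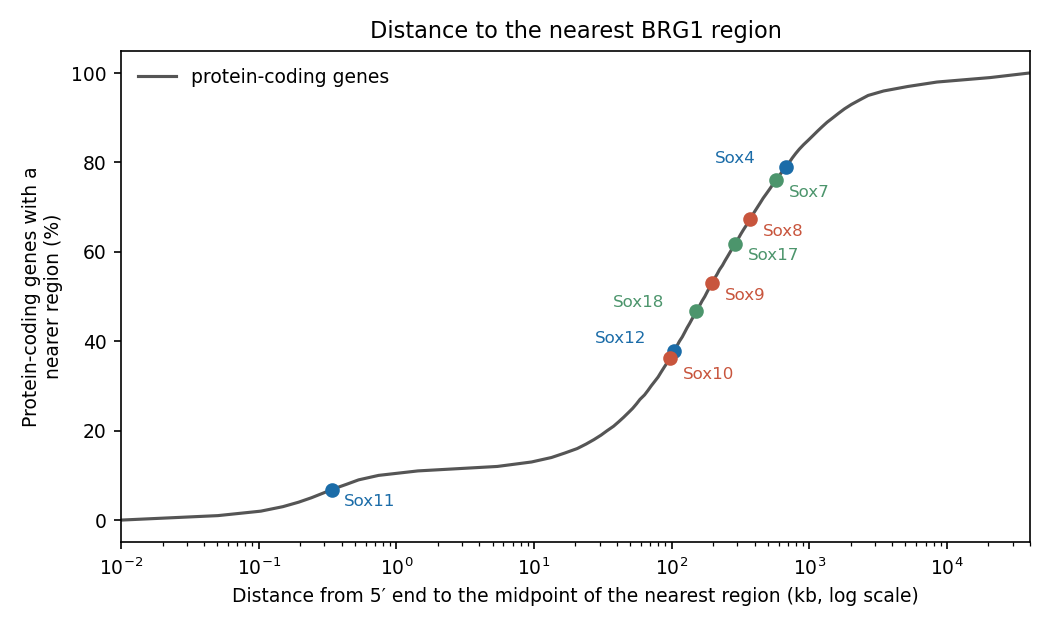
Share of protein-coding genes with a nearer region, in percent, against the distance from the 5′ end to the midpoint of the nearest region in kb on a log scale, with the 9 Sox genes as points coloured by group. Sox11 lies at 0.339 kb, and the other genes lie between 97.3 and 674 kb.

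Sox factors bind short AT-rich words, and AACAATG was searched on both strands of each region. The close variant AACAAAG was counted with it as a Sox word. None of the 3 regions within 100 kb of the members held either word, and the GATA word AGATAA was absent from them as well. The word AGGTGTGA of T-box factors was also absent from these regions. Of all distinct regions, 8.90% held a Sox word, 10.1% the GATA word and 0.921% the T-box word. In windows of 1460 bp on the midpoints of all regions, the width at Sox11, the share with a Sox word was 31.5%. The GATA word was in 35.4% of these windows and the T-box word in 4.84%. The median width of all distinct regions was 360 bp, so that most of these windows also held DNA outside the region. The 940 bp region past Sox9 also held none of the words, where 19.6% of windows of that width had a Sox word, 21.7% the GATA word and 2.76% the T-box word. Within 1 kb of the 5′ end, a Sox word was present at Sox12 and Sox10, or 2 of 9 genes, against 48.5% of protein-coding genes. A GATA word was present at 5 of 9 genes against 57.8%, and a T-box word at Sox10 against 7.95%. These shares were not matched for GC content, of which the median was 61.8% over the 9 genes and 51.1% over protein-coding genes.

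The other Sox genes were set beside these 9. Of 10 genes of groups A, B, D, G and H, 3 had a region at a promoter, namely Sox21, Sox5 and Sox13, and 5 had one within 100 kb. Over all protein-coding genes these shares were 11.9% and 40.3%. Another gene of that list was not analysed here. The region at Sox5 (chr6:144730066-144730885), a SoxD gene that acts with Sox9 in cartilage, was 820 bp wide and on 4 rows, with its midpoint 21.5 bp from the TSS. At Sox13 (chr1:135319986-135320945) it was 960 bp wide, and at Sox21 (chr14:118635886-118636225) it was 340 bp wide. The Sox11 region was wider than these 3.

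Genes that SoxE, SoxF and SoxC factors are known to act with were counted in the same way. Of 9 chondrogenic genes, 1 had a region at a promoter, which was Sox5, and 5 had one within 100 kb. Of 11 neural crest and glia genes, 1 had a region at a promoter, namely Ret, a receptor tyrosine kinase of enteric neural crest, and 2 had one within 100 kb. Another gene of that list was not analysed here. Of 13 endothelial and endocardial genes, 2 had a region at a promoter, Notch1 and Nfatc1, and 5 had one within 100 kb. Nfatc1, a transcription factor gene of the endocardium, had 2 regions at its promoters, and the 940 bp region at Notch1 lay at an internal start of the gene. Of 10 endoderm genes, 0 had a region at a promoter and 4 had one within 100 kb. Of 4 genes associated with SoxC factors, 0 had one at a promoter and 1 had one within 100 kb. The shares of these lists lay on both sides of those of all protein-coding genes, which were 11.9% at a promoter and 40.3% within 100 kb.

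For scale, a region at a promoter was listed for 0 of 8 GATA and FOG genes, 3 of 17 T-box genes and 10 of 43 forkhead genes. With 9 members, 1 gene more or less moves the share of the Sox genes by 11.1 percentage points, and differences between these families were not tested.

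**Figure D5:**
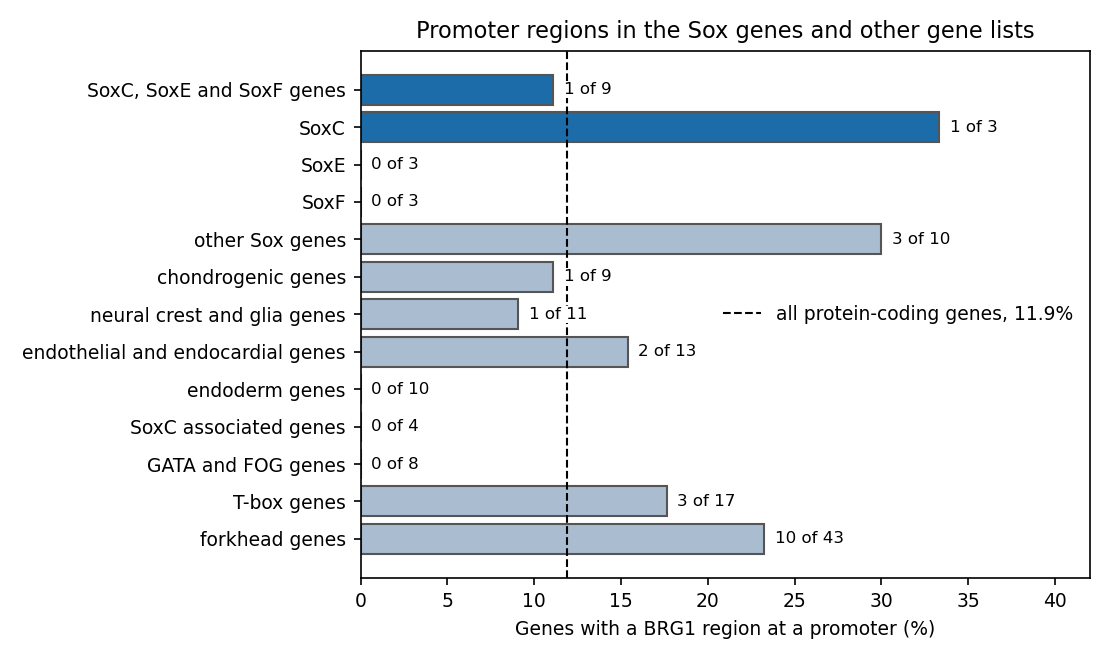
Share of genes with a BRG1 region at a promoter, in percent, for the 9 Sox genes together and by group and for the other gene lists, with counts beside the bars. The dashed line marks 11.9% of all protein-coding genes, and the 9 Sox genes stand at 1 of 9.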

How the data were processed

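BRG1 ChIPseq positions from wild-type CPs were used, which came from chromatin crosslinked with disuccinimidyl glutarate and formaldehyde, cut with MNase and sonicated. Single-end reads of 75 bp were trimmed (fastq-mcf) and aligned (Bowtie, mm9) by the authors, who kept reads above a minimum mapping quality. They listed bins with more BRG1 signal than input at a set P-value threshold. The deposited list gives a chromosome, a start and an end in bp, per the labels on mm9, and tool versions and the way of combining libraries are not given in the sources used here. Starts were read as counted from 0 and are printed counted from 1. Widths were multiples of 20 bp.

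Regions were compared with the assembly and with GENCODE release M1, with records of the same symbol joined, using Python 3.11.15, pysam 0.24.0, numpy 2.4.6, numba 0.67.0, matplotlib 3.10.9 and samtools 1.23.1. Any overlap counted. Overlap and word functions were tested on simulated lists. Members and gene lists were chosen with earlier results of these data known. All 9 members were named, with every region at or within 100 kb of them, and from the lists the genes with a region at a promoter. From the comparison families only counts are given. The CpG classes were chosen after the data were seen. The alternatives changed promoter, window, row and word definitions.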

Additional observations from a re-analysis of the deposited data

How the results depend on the processing

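The count of 1 gene with a region at a promoter was the same under all 8 other definitions, which were 500 bp, 2 kb and 5 kb either side, 1 kb upstream, protein-coding starts, the 5′ end of the gene, region midpoints and, chosen after seeing the data, RefSeq starts. The RefSeq starts were placed for 4 of the 9 genes, Sox4, Sox8, Sox11 and Sox12, and the others kept their GENCODE starts, so that this last definition tested only those 4. The share of 11.9% of all protein-coding genes is for 1 kb either side of a TSS. Shares under the 8 other definitions are not given here, so these counts could not be set against a background. With 1 kb around each TSS taken off the body, 1 gene had a region there, through 68 bp of the Sox11 region, against 2.40% of protein-coding genes. With regions at a promoter of the gene left out altogether, chosen after seeing the data, it was 0 genes against 1.85%. The number of genes with a region nearby moved from 3 at 100 kb to 1 at 50 kb, 5 at 200 kb and 7 at 500 kb, where 28.5%, 55.5% and 74.2% of protein-coding genes had one, and that of distinct regions from 3 to 1, 6 and 21. Counting each row gave 8 in place of 3, because the Sox11 region is on 6 rows. The numbers of genes and of distinct regions both fell from 3 to 2 when 100 kb was taken from the 5′ end, which left out the region near Sox12. Measured from the 5′ end to region midpoints, 37% of protein-coding genes on chromosomes with a region lay within 100.1 kb of one. The GC content of the Sox11 region was 70.4% in 500 bp on its midpoint, where the whole region had 68.2%. No region within 100 kb held a Sox word under the other settings run, also with 8 words, of which 16.9% of all regions and 64.3% of windows of 1460 bp held one, and regions outside promoters could not be counted, since all 3 were at promoters. No paired analysis was possible because a single list with no value per library was used and no result comes from a test. No stricter threshold could be tried, since the list has positions only, and the unknown depth limits any statement on genes without a region.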
